A study of Mus musculus with 19 samples.

Results

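Quadriceps of AR113Q mice fed a high-fat diet (HFD) was set against quadriceps of AR113Q mice fed the normal chow diet (NCD), on arrays that read RNA from the whole muscle. The samples were chosen by their titles, which give the tissue only as muscle and name the genotype and the diet. The study names the muscle as quadriceps. The chosen samples make up 10 of the 19 samples of the series, with 5 on each diet. The remaining samples are wild-type control (CTR) quadriceps, 5 on the NCD and 4 on the HFD. They serve as the background for the same diet without the mutation. They also enter the probe filter and the fit, so all 19 samples estimate the spread behind the p-values of the AR113Q comparison. The question for this comparison is which transcripts of diseased muscle differ with the diet.

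AR113Q-NCD and AR113Q-HFD are male mice, congenic on C57Bl6J, that carry AR113Q, a knock-in allele with an expanded glutamine tract, which models spinal and bulbar muscular atrophy (SBMA). CTR-NCD and CTR-HFD are wild-type males of the same strain. All were killed at 180 days of age, and the diets began at 40 days of age. The knock-in is present in every cell type, and a muscle sample mixes fibers with vessel, nerve, fat and blood cells. The labels do not say whether a sample is the RNA of 1 mouse, so the p-values measure the spread between these samples.

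Fatty acid synthesis builds palmitate in the cytosol from citrate exported by mitochondria. Slc25a1 carries the citrate out, Acly splits it to acetyl-CoA, Acaca makes malonyl-CoA, Fasn assembles palmitate, Elovl6 lengthens it and the stearoyl-CoA desaturases of the Scd family place a double bond. In liver and fat these genes are known targets of the transcription factors encoded by Srebf1 and Mlxipl, which respond to insulin and sugar, and skeletal muscle normally takes up most of its fatty acids from blood.

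Signals are log2 values from which the array's own 75th percentile is subtracted, and a difference of 1 is a doubling. Between 71.9% and 77.6% of probes were well above background on AR113Q-NCD arrays and between 73% and 79.3% on AR113Q-HFD arrays, and the number of arrays limits the precision. The muscle fiber markers Acta1, Ckm, Des, Ttn, Neb and Mb were all measured. With each signal expressed as a multiple of the 75th percentile, their summed level was 1403, 1369, 1290, 1435 and 1250 on AR113Q-NCD arrays and 1197, 1321, 1111, 1249 and 1352 on AR113Q-HFD arrays, with Acta1 the brightest. Every array carries a strong skeletal muscle signal, and the levels on the diets overlap.

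Fatty acid synthesis held 5 of the 7 genes called for the diet. The gene lists were chosen with earlier results of these data known, so the shares below describe the list and are no independent test of it. Scd3 is among the 5, although its probes disagree. A gene was called if any of its probes passed an adjusted p of 0.05 in limma and changed to at least 1.5 or at most 0.6 times its NCD level, over 32026 probes of 24741 genes. Of the 23 measured genes of the fatty acid synthesis list, 5 were called lower on the HFD and 0 higher, whereas 0.0243% of all genes tested were called lower and 0.00404% higher. At an unadjusted p under 0.05, with the brightest probe of each gene, 11 of the 23 were lower and 0 higher, against 3.41% and 3.23% of all genes. In 8 of the 23, every AR113Q-HFD array lay below every AR113Q-NCD array, and in 0 above, which was so for 1.08% and 0.946% of all genes. The log2 fold change was negative in 16 of the 23, and in 12385 of all 24741 genes. The list's median log2 fold change was −0.29, beside a median within 0.01 of 0 over all genes tested, and it was negative under every scaling of the arrays that was tried. The plot of all tested probes shows the called genes at its upper left and a single one at its upper right.

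**Figure D1:**
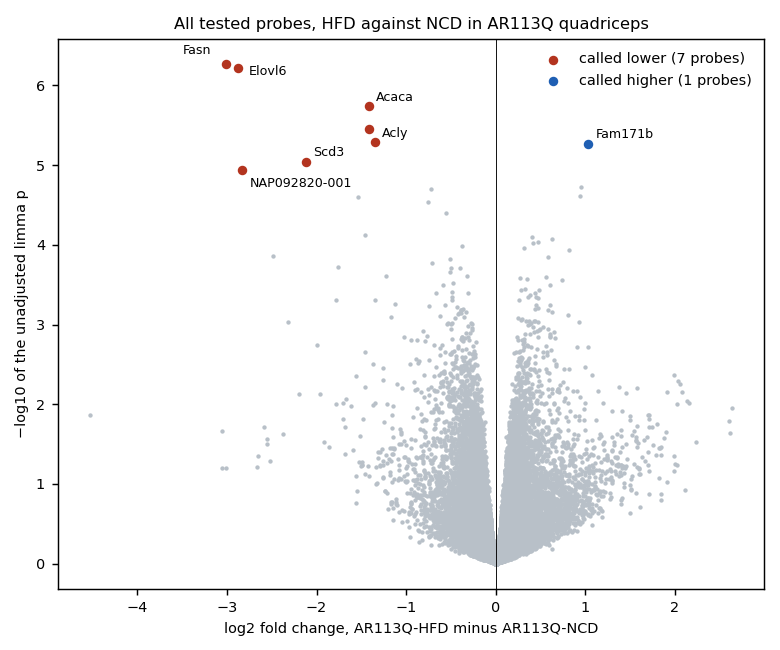
Log2 fold change of each of 32026 probes between AR113Q-HFD and AR113Q-NCD arrays (horizontal) against the negative log10 of the unadjusted limma p (vertical). Red points are called lower and the blue point is called higher, and the red points with the largest differences are Fasn (−3.01) and Elovl6 (−2.88).

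The sequences before the starts of Fasn, Elovl6 and Acly are shown because these genes were called lower together. They come from RefSeq on build GRCm38.p6, as the 250 bases before the transcription start, read on the gene's strand, and 5 of the 7 called genes were found there. Both strands were searched for the core of the sterol regulatory element (TCACNCCAC), the E-box bound by the partner of Mlxipl (CACGTG), the CCAAT box (CCAAT) and the GC box (GGGCGG). These letters occur in 1.05%, 6.02%, 33.8% and 32.7% of the 32851 promoters of the table over the same 250 bases. Capitals mark the CCAAT boxes in Fasn (chr11:120824548-120824797, minus strand), with 3 matches of which 2 overlap, and the GC boxes in Acly (chr11:100528001-100528250, minus strand), with 4 matches. The window of Elovl6 (chr3:129532136-129532385, plus strand) holds 0 matches to any of the motifs, as do those of Acaca and Scd3. A match describes the letters and is not a binding site.
Fasn: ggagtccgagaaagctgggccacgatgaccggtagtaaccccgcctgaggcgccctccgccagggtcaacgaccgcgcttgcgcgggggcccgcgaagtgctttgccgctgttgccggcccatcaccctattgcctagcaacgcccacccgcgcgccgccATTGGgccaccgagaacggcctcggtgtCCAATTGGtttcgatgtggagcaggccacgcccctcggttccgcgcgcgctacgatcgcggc
Elovl6: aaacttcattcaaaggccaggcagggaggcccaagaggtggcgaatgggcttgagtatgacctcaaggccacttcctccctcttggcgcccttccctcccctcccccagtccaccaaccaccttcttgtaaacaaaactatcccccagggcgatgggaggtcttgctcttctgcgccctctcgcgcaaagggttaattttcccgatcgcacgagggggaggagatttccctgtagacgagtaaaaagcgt
Acly: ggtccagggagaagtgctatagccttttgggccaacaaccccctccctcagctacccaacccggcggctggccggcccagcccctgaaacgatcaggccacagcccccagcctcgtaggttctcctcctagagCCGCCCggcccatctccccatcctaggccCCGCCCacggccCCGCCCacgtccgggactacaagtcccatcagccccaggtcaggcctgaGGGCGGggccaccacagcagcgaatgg

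Fasn, the synthase itself, had signals of −0.73, 1.01, 0.015, −0.52 and 0.40 on AR113Q-NCD replicates 1 to 5 and of −3.12, −2.56, −2.48, −3.71 and −3.00 on AR113Q-HFD replicates 1 to 5. All 5 HFD arrays lie well below the lowest NCD array, and the highest NCD value is that of replicate 2. Fasn was 8.07-fold lower on the HFD (−3.01 on the log2 scale with a standard error of 0.38, limma adjusted p = 0.00973). Elovl6 (NM_130450), which lengthens palmitate to stearate, has its probe on chromosome 3, from 129341248 to 129341307 in build mm9. Its signals were −1.12, 1.35, −0.46, −0.77 and 0.072 on AR113Q-NCD arrays and −2.74, −3.25, −3.04, −3.23 and −3.06 on AR113Q-HFD arrays. The NCD arrays spread widely with replicate 2 on top, the HFD arrays are close together, and the diets do not overlap. Elovl6 was 7.36-fold lower (−2.88 on the log2 scale with a standard error of 0.37, adjusted p = 0.00973).

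Acaca, whose product is the malonyl-CoA that Fasn uses, has 4 probes, of which 2 were called. The brightest (NM_133360; chromosome 11, 84215093 to 84215152 in mm9) gave 2.14, 3.36, 2.61, 2.37 and 3.02 on AR113Q-NCD arrays and 1.29, 1.19, 1.53, 1.02 and 1.42 on AR113Q-HFD arrays. Again every HFD array is below every NCD array, and NCD replicates 2 and 5 are the highest. Acaca was 2.66-fold lower by this probe (−1.41 on the log2 scale with a standard error of 0.21, limma adjusted p = 0.0279). The other called probe lies within a base of it and gave −1.42, while the remaining probes gave −1.53 and −1.16 and were not called. Acly (NM_001199296; chromosome 11, 100337674 to 100337733 in mm9), the enzyme that makes the acetyl-CoA, gave 2.49, 3.73, 2.73, 2.32 and 3.1 on AR113Q-NCD arrays and 1.67, 1.46, 1.46, 1.5 and 1.56 on AR113Q-HFD arrays. The HFD arrays span a narrow range under all NCD arrays, of which replicate 2 is the highest. Acly was 2.54-fold lower (−1.35 on the log2 scale with a standard error of 0.20, adjusted p = 0.0287), and its second probe, with −0.89, was not called.

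Scd3, a stearoyl-CoA desaturase best known from skin, was called by 1 of its 3 probes. That probe (NM_024450; chromosome 19, 44289995 to 44290054 in mm9) gave −2.74, −1.87, −2.51, −2.59 and −2.56 on AR113Q-NCD arrays and −4.05, −4.81, −3.82, −5.16 and −5.03 on AR113Q-HFD arrays. The diets do not overlap, and HFD replicates 1 and 3 are nearest to the NCD arrays. It was 4.34-fold lower on the HFD (−2.12 on the log2 scale with a standard error of 0.34, limma adjusted p = 0.0414). The brightest Scd3 probe, which stands for the gene in the counts at an unadjusted p, had 0.14 (adjusted p = 0.904) and the remaining probe had −0.30, so the probes of this gene disagree. The size for the called probe also depends on the processing, with −0.63 in the deposited log2 table and −1.16 after normexp correction, and 15 of 21 alternatives lost the call. Scd1, the main desaturase of adult tissues, had signals of 3.61, 4.66, 4.53, 4.62 and 4.46 on AR113Q-NCD arrays and of 1.45, 2.37, 3.07, 1.09 and 1.46 on AR113Q-HFD arrays. Its diets do not overlap either, but the HFD arrays spread widely and its log2 fold change of −2.49 (standard error 0.51) was not called (adjusted p = 0.19). NAP092820-001, a transcript with no gene name in the files, gave −4.71, −2.22, −4.45, −4.61 and −3.77 on AR113Q-NCD arrays and −5.95, −6.96, −6.40, −6.89 and −7.70 on AR113Q-HFD arrays. It was called lower (−2.83 on the log2 scale with a standard error of 0.46, adjusted p = 0.0465), but it was well above background on 5 NCD arrays and on 1 HFD array, so the size of its difference rests on signals near the background. The call was lost in 16 of 20 alternatives, among them each of the 10 fits with an array left out, and the difference was −0.97 after normexp correction.

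**Figure D2:**
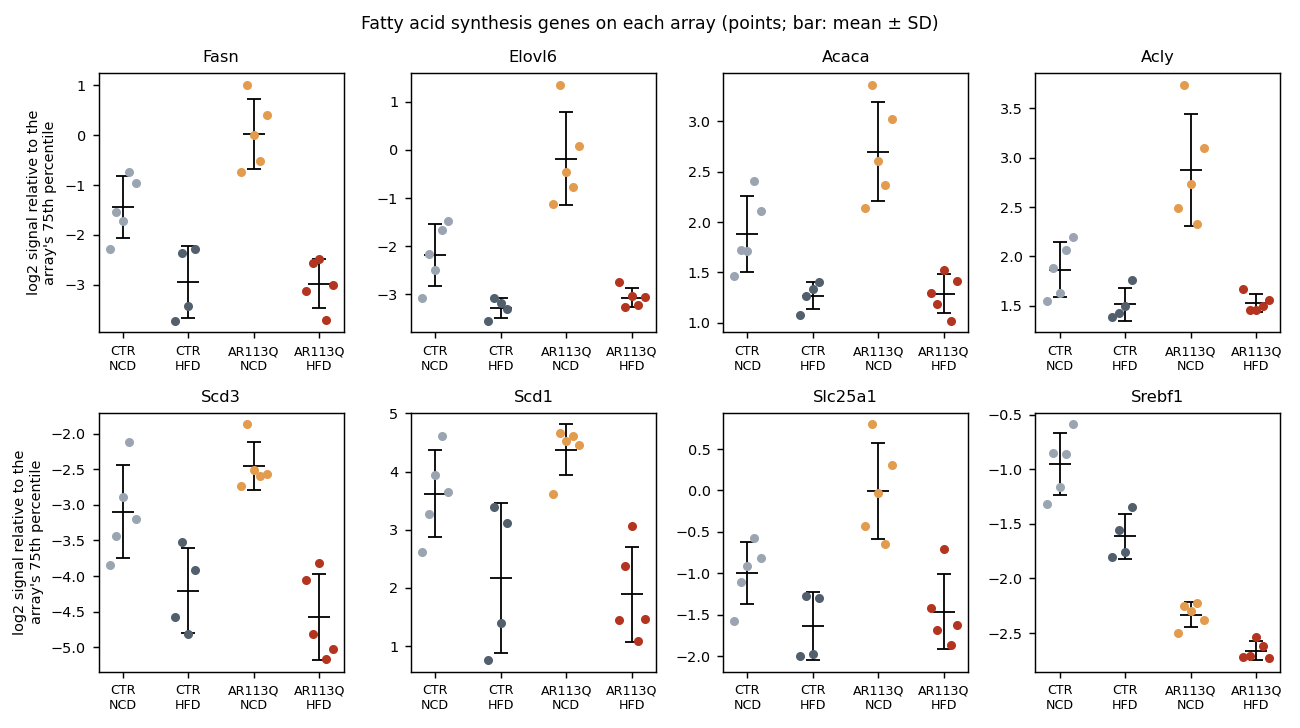
Log2 signal relative to the array's 75th percentile for 8 fatty acid synthesis genes on each of 19 arrays (points) with the mean and SD of each group (bars). In every panel each AR113Q-HFD array lies below each AR113Q-NCD array, and Scd1, Slc25a1 and Srebf1 were not called.

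The rest of the list shows where along the pathway the differences lie. Slc25a1, the citrate carrier, had −0.43, 0.80, −0.028, −0.65 and 0.30 on AR113Q-NCD arrays and −1.42, −1.68, −0.71, −1.86 and −1.63 on AR113Q-HFD arrays. Its groups are apart by a small gap, and its log2 fold change of −1.46 (limma adjusted p = 0.158) was not called. Scd2 had −0.62 and Srebf1 −0.33, both with arrays that do not overlap, and Thrsp, which encodes a lipogenic cofactor, had −0.68. Pnpla3 with −0.48 and Elovl5 with −0.29 complete the 11 genes under an unadjusted p of 0.05, and none of these 5 was called. Srebf1 signals were −2.50, −2.25, −2.30, −2.22 and −2.38 on AR113Q-NCD arrays and −2.72, −2.71, −2.53, −2.62 and −2.73 on AR113Q-HFD arrays, a small difference next to those of its known targets. Me1, which supplies NADPH for the synthesis, had 0.071, and Mlxipl had −0.076. With an array left out, Me1 ranged over 0.025 to 0.10 and Mlxipl over −0.13 to −0.022. Log2 fold changes of 0.13 for Scap, 0.061 for Mid1ip1, 0.22 for Scd4, 0.02 for Nr1h3 and 0.013 for Acacb were positive, although normexp correction turned Scd4 to −0.016 and the deposited log2 table turned Acacb to −0.033. Acacb makes malonyl-CoA at the mitochondrial membrane, where it restrains fatty acid import, and its signals lay between 4.97 and 5.40 on all 10 arrays, while a second Acacb probe had −0.14. Mlx was within 0.01 of 0 and changed sign with the scaling, and Acss2, Fads1 and Fads2 had −0.35, −0.26 and −0.14. Single left-out arrays moved Fads1 over −0.40 to −0.17 and Fads2 over −0.29 to −0.054.

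The arrays of equal replicate number in AR113Q-NCD and AR113Q-HFD shared a slide, so the diet was also compared within each of the 5 slides. For Fasn the differences within slides were −2.40, −3.57, −2.50, −3.19 and −3.40, and for Elovl6 −1.63, −4.60, −2.58, −2.46 and −3.13. Both genes were lower on the HFD on 5 of 5 slides, by the most for Elovl6 on the slide that holds replicate 2. In each called gene the diets do not overlap, so its sign within slides was fixed in advance. Only the sizes of these differences and the blocked fit add information. With the slide as a block, Fasn (adjusted p = 0.00844) and Elovl6 (adjusted p = 0.0358) were the 2 genes called lower, and 0 genes were called higher by limma, against 6 and 1 without the block. At an unadjusted p under 0.05, with the brightest probe of each gene, the blocked fit had 1346 genes lower and 1200 higher, against 844 and 798 without the block. Acaca had −0.85, −2.18, −1.08, −1.35 and −1.61 within slides and Acly −0.82, −2.28, −1.27, −0.82 and −1.54, lower on 5 of 5 slides for each gene, but the call was lost in the blocked fit, with adjusted p of 0.0709 for Acaca and 0.0792 for Acly. Scd3 (adjusted p = 0.107) and NAP092820-001 (adjusted p = 0.117) lost it too, with 5 of 5 slides lower. The median of the fatty acid synthesis list within slides was −0.04, −0.48, −0.24, −0.27 and −0.33, each below 0, beside medians from −0.058 to 0.053 over all genes tested.

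**Figure D3:**
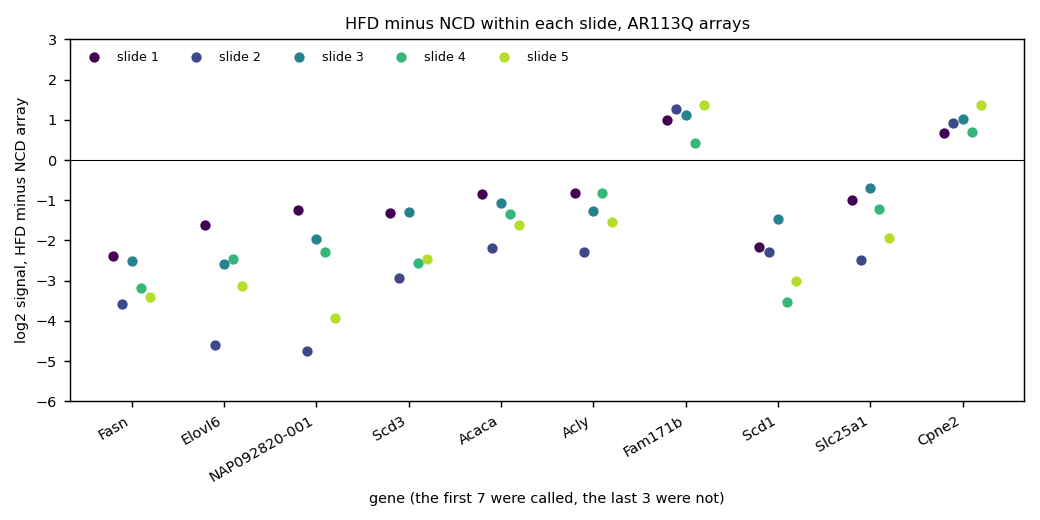
Log2 signal of the AR113Q-HFD array minus that of the AR113Q-NCD array on the same slide, for 10 genes and 5 slides (points). Each of the 7 called genes has the same sign on all 5 slides, as have Scd1, Slc25a1 and Cpne2, which were not called. The sign follows from diet groups that do not overlap in any of the 10 genes, so only the sizes add information.

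Single arrays decided several of these calls. Without AR113Q-NCD replicate 5, 0 genes were called lower, and Fasn and Elovl6 each had an adjusted p of 0.053 with log2 fold changes of −2.92 and −2.82. Without AR113Q-HFD replicate 2, 1 gene (Fasn) was called lower, with an adjusted p of 0.0517 for Elovl6, and 2 genes (Fasn and Elovl6) were called lower without AR113Q-NCD replicate 3, without AR113Q-HFD replicate 1 or without AR113Q-HFD replicate 5. Without AR113Q-NCD replicate 2, the array with the highest signals of Fasn, Elovl6, Acaca and Acly, these genes had log2 fold changes of −2.77, −2.50, −1.25 and −1.13, and each was called. On the 10 AR113Q arrays alone, 1 gene was called lower (Acaca, by a probe that the fit of all arrays did not call), and Fasn had an adjusted p of 0.115.

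Fat cells make much of the body's fatty acid, so their markers are given beside these results. In whole muscle, fewer cells of a type and less RNA per cell cannot be told apart. All 10 white adipocyte markers were measured, 8 of them with a negative log2 fold change (median −0.39) and 0 called, and 1 was lower at an unadjusted p under 0.05. Over all genes 12385 of 24741 were negative and 3.41% were lower at that p. Their summed level, led by Fabp4, was 114, 143, 176, 148 and 182 on AR113Q-NCD arrays and 111, 136, 228, 86.2 and 159 on AR113Q-HFD arrays. The diets overlap, with the highest and the lowest level both on the HFD, in replicates 3 and 4. The ratio of the medians was 0.919, and the median log2 fold change of the markers was −0.16 without AR113Q-HFD replicate 4 and −0.66 without AR113Q-HFD replicate 3. Of the brown adipocyte markers, 5 of 6 were measured (Elovl3 was not), 5 were negative, 1 (Ucp1) had an unadjusted p under 0.05 and 0 were called, with a median of −0.59 that was −0.30 without AR113Q-NCD replicate 2. Their summed level, which is mostly that of Cox7a1 and Cox8b, genes that muscle fibers also express, was 518, 535, 460, 561 and 487 on the NCD and 443, 473, 391, 454 and 505 on the HFD. Ucp1, the uncoupling protein of brown fat, gave −5.04, 3.73, −6.35, −0.33 and −2.90 on AR113Q-NCD arrays and −5.52, −8.44, −6.69, −7.91 and −4.97 on AR113Q-HFD arrays. It was highest by far in AR113Q-NCD replicate 2, was well above background on 5 NCD and 2 HFD arrays, and its log2 fold change of −4.53 was not called (adjusted p = 0.594). Cidea, a lipid droplet protein of brown fat, was likewise highest in that sample, with 0.30, 3.92, 0.86, 0.96 and 0.94 on AR113Q-NCD and 1.09, −0.35, −0.019, −0.20 and 1.77 on AR113Q-HFD arrays. The part of fat cells in the fatty acid synthesis results was not tested.

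The same list was read in control mice. There 0 genes were called between CTR-HFD and CTR-NCD by limma, and the unadjusted p was under 0.05 upward in 5.41% of genes and downward in 3.07%. Of the 23 fatty acid synthesis genes, 10 were lower and 3 higher at that p, with a median of −0.15. Fasn had −2.29, −1.53, −1.72, −0.73 and −0.96 on CTR-NCD arrays and −3.72, −2.36, −3.42 and −2.29 on CTR-HFD arrays, which differ by −1.5 (adjusted p = 0.351). The Fasn groups of control mice touch, since CTR-NCD replicate 1 and CTR-HFD replicate 4 have nearly the same signal. Elovl6 had −3.08, −2.16, −2.49, −1.67 and −1.48 on CTR-NCD arrays and −3.55, −3.07, −3.19 and −3.31 on CTR-HFD arrays, which differ by −1.10 (adjusted p = 0.458). In the plot of single genes, the CTR-HFD and AR113Q-HFD arrays have similar Fasn, Elovl6, Acaca and Acly signals, and the AR113Q-NCD arrays reach above the CTR-NCD arrays. The difference between the genotypes in the diet effect was −1.51 for Fasn (95% interval −2.70 to −0.32, not adjusted for the number of probes; adjusted p = 0.977) and −1.78 for Elovl6 (−2.93 to −0.63; adjusted p = 0.918). For Acly it was −1.0 (−1.63 to −0.36) and for Acaca −0.80 (−1.45 to −0.15). In limma 0 genes passed an adjusted p of 0.05 for this interaction, with 1404 genes that had any probe at an unadjusted p under 0.05, so the diet effect on these genes is not shown to differ between AR113Q and control mice. Scd2 and Srebf1 had log2 fold changes of −1.06 and −0.66 in control mice, beside −0.62 and −0.33 in AR113Q mice.

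Other lipid pathways had smaller differences, and 0 of their genes were called. In the cholesterol synthesis list, whose genes answer to the sterol-regulated relative of Srebf1, 22 of 24 had a negative log2 fold change. Of the 24, 5 were lower at an unadjusted p under 0.05, and the median was −0.11. All genes tested had 12385 of 24741 negative and 3.41% lower at that p. Sqle (−0.49), Insig1 (−0.45), Lss (−0.36) and Stard4 (−0.34) had the smallest p there. In the triglyceride synthesis and lipolysis list, 19 of 23 were negative, 4 were lower at that p, and the median was −0.20. Dgat2, which adds the last acyl chain of a triglyceride, had 4.14, 4.81, 4.76, 4.37 and 4.65 on AR113Q-NCD arrays and 4.0, 3.71, 3.56, 3.69 and 4.35 on AR113Q-HFD arrays, which overlap only through HFD replicate 5 and NCD replicate 1. Plin3 (−0.53) and Agpat2 (−0.57) were near it in size. For uptake and activation of fatty acids the median was −0.12 with 11 of 14 negative, and Lpl, the lipase that frees fatty acids from lipoproteins, had −0.68.

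Genes that burn fat did not move up together with the HFD. Of 23 beta-oxidation genes, 21 had a negative log2 fold change, 2 were lower and 0 higher at an unadjusted p under 0.05, and the median was −0.14, against 12385 of 24741 negative, 3.41% lower and 3.23% higher over all genes. In control mice the median was 0.20 with 3 higher at that p, where 5.41% of all genes were higher. The AR113Q median was −0.059 without AR113Q-HFD replicate 3 and −0.21 without AR113Q-HFD replicate 5, and within slides it was 0.0028, −0.34, −0.50, −0.053 and 0.20, so that slides 1 and 5 are not below 0. Echs1, a hydratase of the spiral, had 4.22, 4.67, 4.32, 4.25 and 4.39 on AR113Q-NCD arrays and 3.88, 3.99, 3.76, 4.04 and 4.09 on AR113Q-HFD arrays. These do not overlap, and the log2 fold change of −0.42 was not called (limma adjusted p = 0.417). Aldh9a1, an enzyme of carnitine synthesis, had 0.75, 0.47, 1.05, 0.35 and 1.39 on the NCD and 0.40, −0.14, 0.52, −0.031 and 0.35 on the HFD, with overlap, and was lower within each of the 5 slides. The difference between genotypes in its diet effect was −0.79 (95% interval −1.47 to −0.11; adjusted p = 0.999), and for Dgat2 it was −1.08 (−1.83 to −0.33; adjusted p = 0.918). Of 23 measured PPAR receptors and targets, 16 were negative with a median of −0.064, which ranged over −0.11 to −0.022 with an array left out and was above 0 within 2 of 5 slides. Ppara itself had 1.97, 2.64, 2.21, 2.62 and 1.95 on AR113Q-NCD arrays and 1.83, 1.39, 0.84, 1.67 and 2.40 on AR113Q-HFD arrays, with HFD replicates 2 and 3 lowest and replicate 5 inside the NCD range. Plin2 (−0.59) and Pparg (−0.52) had the smallest p of that list, Cpt1a was at 0.21, and 0 were called.

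Most mitochondrial energy genes had a small negative difference, and none was called. Of the 49 oxidative phosphorylation genes, 48 had a negative log2 fold change, 17 were lower and 0 higher at an unadjusted p under 0.05, and the median was −0.16. The positive one was Ndufa8, with 1.61 (standard error 1.20), whose AR113Q-NCD arrays had an SD of 3.84 and which was well above background on 4 of the 5. Of 31 TCA cycle and pyruvate dehydrogenase genes, 28 were negative, 16 were lower and 1 (Pdk3) higher at that p, with a median of −0.18. Of all genes tested, 3.41% were lower and 3.23% higher at that p, and 12385 of 24741 were negative. The medians in control mice were 0.051 for the cycle and 0.053 for oxidative phosphorylation, 0 genes of either list were called in AR113Q mice, and both AR113Q medians were negative under every scaling. Among the cycle's enzymes, Idh3b had 6.40, 6.37, 6.42, 6.28 and 6.42 on AR113Q-NCD arrays and 6.05, 6.19, 5.97, 6.17 and 6.17 on AR113Q-HFD arrays, and Idh2 had a log2 fold change of −0.79. Idh3b does not overlap between the diets, although its log2 fold change of −0.27 is small. Of the respiratory chain, Uqcrc1 in complex III had −0.32 and Atp5a1 of the ATP synthase −0.26, both without overlap. Within slides the TCA cycle medians were −0.14, −0.17, −0.35, −0.14 and −0.075, and those of oxidative phosphorylation were −0.19, −0.15, −0.31, −0.19 and 0.0018. All are below 0 except that of slide 5 for oxidative phosphorylation, and slide 3 has the lowest of each. Among 19 regulators of mitochondrial biogenesis, 17 were negative with a median of −0.078 (−0.10 to −0.044 with an array left out). Ppargc1a, the coactivator that drives it, had 2.50, 3.46, 2.97, 3.22 and 2.86 on AR113Q-NCD arrays and 2.64, 3.09, 2.13, 2.85 and 2.91 on AR113Q-HFD arrays, so that 4 of 5 HFD arrays lie within the NCD range and replicate 3 lies below. Mfn1, a fusion protein of the outer membrane, had the smallest p (−0.32).

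Slow fiber genes had the lowest median of the pathway lists. Of 16 measured, 14 had a negative log2 fold change, 6 were lower and 1 (Myl6b) higher at an unadjusted p under 0.05, and in 9 every AR113Q-HFD array lay below every AR113Q-NCD array. Over all genes tested the shares are 3.41% lower and 3.23% higher at that p, and 1.08% with every HFD array below. The median was −1.41, but 0 were called, and the smallest adjusted p was 0.6. Myl3, the slow ventricular-type myosin light chain, had 7.02, 7.41, 7.79, 6.93 and 6.65 on AR113Q-NCD arrays and 5.70, 2.12, 0.88, 5.66 and 6.15 on AR113Q-HFD arrays. Tnnc1, slow troponin C, had 2.13, 2.37, 3.45, 2.05 and 2.16 on the NCD and 1.16, −2.30, −2.34, 0.98 and 1.70 on the HFD. In both genes HFD replicates 2 and 3 are far below the other HFD arrays, which lie nearer to the NCD arrays. Myh7b followed the same order, with −1.04, −0.59, −0.061, −1.36 and −1.19 on AR113Q-NCD and −1.74, −3.04, −3.31, −1.93 and −1.64 on AR113Q-HFD arrays. The log2 fold changes were −3.06 (standard error 1.21, limma adjusted p = 0.653) for Myl3, −2.59 (standard error 1.0) for Tnnc1 and −1.48 (standard error 0.55) for Myh7b. Within slides the median of the list was −0.70, −2.22, −2.92, −0.88 and −0.24.

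The spread of the slow fiber genes is as wide in control mice. Relative to the mean of the AR113Q-NCD arrays, the median of the list was −1.46, −0.26, −1.26, −3.08 and −2.74 on CTR-NCD arrays and −2.58, −3.17, 0.065 and −3.61 on CTR-HFD arrays, beside −0.93, −1.95, −2.44, −1.27 and −0.44 on AR113Q-HFD arrays. The 5 AR113Q-NCD arrays, between −0.27 and 0.53, are the only group whose members are close together. In control mice the median of the list was −0.52 with 0 at an unadjusted p under 0.05. Fast fiber genes had a median of −0.057 with 13 of 18 negative and 0 at that p, and quantile normalization and normexp correction turned that median to 0.0053 and 0.0035. Myh4, the main fast myosin of mouse quadriceps, had −0.10, and Myh2, the myosin of oxidative fast fibers, had 7.65, 8.02, 7.96, 7.95 and 7.58 on AR113Q-NCD and 7.08, 6.61, 5.84, 7.13 and 7.80 on AR113Q-HFD arrays. Myh2 is lowest on HFD replicates 3 and 2, the arrays that are low in slow fiber genes.

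**Figure D4:**
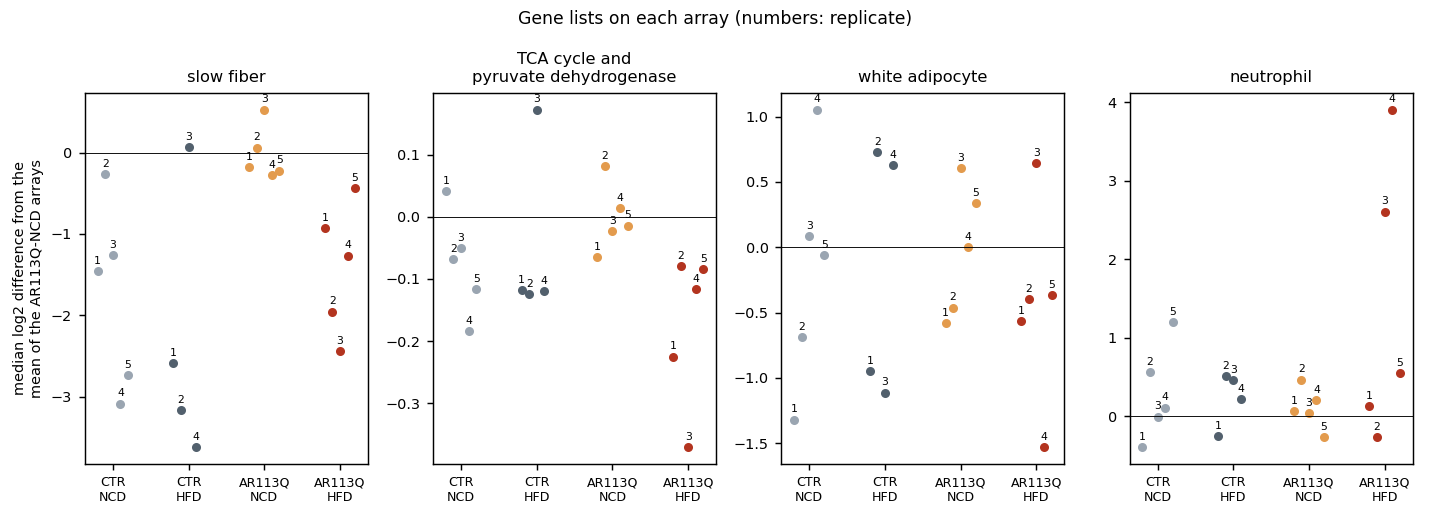
Median over the genes of 4 lists of the log2 difference from the mean of the AR113Q-NCD arrays, on each of 19 arrays (points, numbered by replicate). The slow fiber panel shows AR113Q-HFD replicates 2 and 3 lowest of their group, and the neutrophil panel shows AR113Q-HFD replicates 3 and 4 at 2.61 and 3.90.

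The only gene called higher was Fam171b, which encodes a membrane protein. Its probe (chromosome 2, 83723111 to 83723170 in mm9) gave −2.86, −2.95, −2.93, −2.35 and −2.82 on AR113Q-NCD arrays and −1.86, −1.67, −1.81, −1.94 and −1.45 on AR113Q-HFD arrays. The groups do not overlap, and NCD replicate 4 is nearest to the HFD arrays. Fam171b rose by 1.03 on the log2 scale (standard error 0.16, limma adjusted p = 0.0287), and a second probe had 0.95 (adjusted p = 0.0642). The differences within slides were 1.0, 1.27, 1.12, 0.41 and 1.36, all positive, as they must be for groups that do not overlap. The call was lost in the limma fit with the slide as a block (adjusted p = 0.107). In control mice the log2 fold change was −0.13, and the difference between the genotypes was 1.16 (95% interval 0.68 to 1.65; adjusted p = 0.821). Of the leave-one-out fits, those without AR113Q-NCD replicate 4 and without AR113Q-HFD replicate 4 kept the call. Each of the other 8 lost it, with 0 genes called higher and adjusted p for Fam171b from 0.0548 to 0.133. Without AR113Q-HFD replicate 4, 6 genes were called higher, which were Fam171b, Cpne2, Gldn, Lrrcc1, Nes and Vwa7.

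Cpne2, a calcium-dependent membrane-binding protein, had 0.90, 0.63, 0.53, 0.55 and 0.44 on AR113Q-NCD arrays and 1.58, 1.55, 1.55, 1.25 and 1.80 on AR113Q-HFD arrays. The arrays do not overlap, and the log2 fold change of 0.94 (standard error 0.16) had an adjusted p of 0.0662 from limma, just outside the threshold. Its diet effect in control mice was 0.071, with a difference between genotypes of 0.86 (95% interval 0.36 to 1.37, not adjusted for the number of probes). The limma adjusted p of that difference was 0.918, so the diet effect on Cpne2 is not shown to differ between genotypes. Further large positive differences without overlap, at an unadjusted p under 0.01 and none of them called, were those of Krtdap (1.91), BC019489 (1.20), Gm7534, now named Zpld2 (1.15), Cldn2 (1.03) and Dfna5, now Gsdme (0.80). After normexp correction the difference was 0.71 for Krtdap, 0.85 for BC019489, 0.21 for Gm7534, 0.20 for Cldn2 and 0.56 for Dfna5, so their sizes depend on the background treatment. A second Dfna5 probe, which was near the background, had −0.31. Krtdap, a keratinocyte gene, gave −5.18, −4.68, −4.61, −4.39 and −6.23 on the NCD and −1.27, −4.28, −2.33, −3.51 and −4.16 on the HFD, so that its difference rests mostly on HFD replicates 1 and 3. On the negative side Gys2, the liver form of glycogen synthase, had −3.36, −1.44, −2.27, −3.11 and −2.56 on AR113Q-NCD arrays and −4.76, −3.56, −3.67, −5.07 and −4.56 on AR113Q-HFD arrays. Its log2 fold change was −1.78 (adjusted p = 0.291), beside −0.24 in control mice. The transcripts 5430401H09Rik (−1.78) and 4933404I11Rik (−2.20) were lower without overlap, the latter well above background on 2 of 5 HFD arrays. Normexp correction brought these to −1.06 and −0.49, and Gys2 to −1.11.

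For sugar and growth pathways 0 genes were called. The median was −0.081 for glycolysis, where 4 of 24 genes were lower and 1 higher at an unadjusted p under 0.05 (3.41% and 3.23% of all genes), within 0.01 of 0 for glycogen metabolism, and 0.0051 for mTOR and insulin signalling. In glycolysis 20 of 24 genes were negative, and the median was below 0 within 4 of 5 slides and ranged over −0.12 to −0.057 with an array left out. Over all alternatives the glycolysis median ranged over −0.12 to −0.023. Slc2a4, the insulin-responsive glucose carrier, had −0.29, and Fbp2, the muscle fructose bisphosphatase, had 1.22, 1.37, 1.04, 1.20 and 1.38 on AR113Q-NCD arrays and 1.55, 1.82, 1.73, 1.92 and 1.64 on AR113Q-HFD arrays. Fbp2 does not overlap between the diets, and its log2 fold change of 0.49 was not called, beside 0.78 in control mice. For atrophy and myostatin genes the median was 0.036 with 0 of 18 at that p. For autophagy and lysosome genes it was 0.024, with 4 of 31 higher and 2 lower. Tfeb, their master regulator, had 1.73, 1.71, 1.57, 1.48 and 1.66 on AR113Q-NCD arrays and 1.53, 1.91, 1.83, 1.71 and 1.43 on AR113Q-HFD arrays, which overlap, and its log2 fold change of 0.051 had a sign that a single array could turn, to −0.0073 without AR113Q-HFD replicate 2. Uvrag (0.30) and Sqstm1 (0.22) were among the 4, and Gabarapl1 (−0.41) was among the 2. The sign of the median changed with a setting or an array for glycogen metabolism, mTOR and insulin signalling, atrophy and myostatin, and autophagy and lysosome genes, and for collagens and matrix.

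Denervation and stress genes held single differences. Of 22 denervation genes, 4 had an unadjusted p under 0.05 with a higher signal and 0 with a lower (3.23% and 3.41% of all genes), and 0 were called. The median was 0.092, but 0.0030 without AR113Q-HFD replicate 5 and 0.21 without AR113Q-HFD replicate 3, and within slides it was 0.27, −0.14, −0.031, 0.0099 and 0.36, below 0 on 2 of 5. Ncam1, a surface protein of denervated fibers, had −1.92, −2.15, −1.73, −1.43 and −1.74 on AR113Q-NCD arrays and −0.93, −1.20, −1.76, −1.33 and −0.40 on AR113Q-HFD arrays, and Chrna1, a subunit of the acetylcholine receptor, had 2.61, 2.97, 2.68, 2.80 and 3.40 and 3.63, 3.25, 3.40, 3.15 and 3.85. Both overlap between the diets, with log2 fold changes of 0.67 and 0.57, and Chrnb1 (0.45) and Musk (0.43) are the others of the 4. Within slides Chrna1, Chrnb1 and Musk were higher on the HFD on 5 of 5, and Ncam1 on 4 of 5. In the circadian clock list the median was 0.13 with 2 of 18 higher, namely Gm129, now Ciart, and Cry2 (0.41), and normexp correction turned Gm129 from 0.94 to −0.071. The unfolded protein and integrated stress response list had a median of −0.065 with 3 of 23 lower and 1 higher. Its Atf3, a stress-induced transcription factor, gave 1.26, 4.14, 2.76, 2.43 and 2.27 on AR113Q-NCD arrays and 0.65, 1.63, −0.12, 1.76 and 0.83 on AR113Q-HFD arrays, with NCD replicate 2 highest. Heat shock proteins had a median of −0.056 with 2 of 20 lower, among them Hspa1a (−1.31), which was also highest in NCD replicate 2. The median was 0.037 for the NRF2 and metallothionein response, −0.069 for interferon and inflammation, and within 0.01 of 0 for collagens and matrix, with at most 2 genes a direction at that p in each. These medians moved with single arrays. With an array left out they ranged over −0.11 to −0.0052 for heat shock proteins, −0.10 to −0.0042 for interferon and inflammation, 0.0086 to 0.069 for the NRF2 response, −0.10 to −0.048 for the unfolded protein response and 0.083 to 0.17 for the circadian clock.

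**Figure D5:**
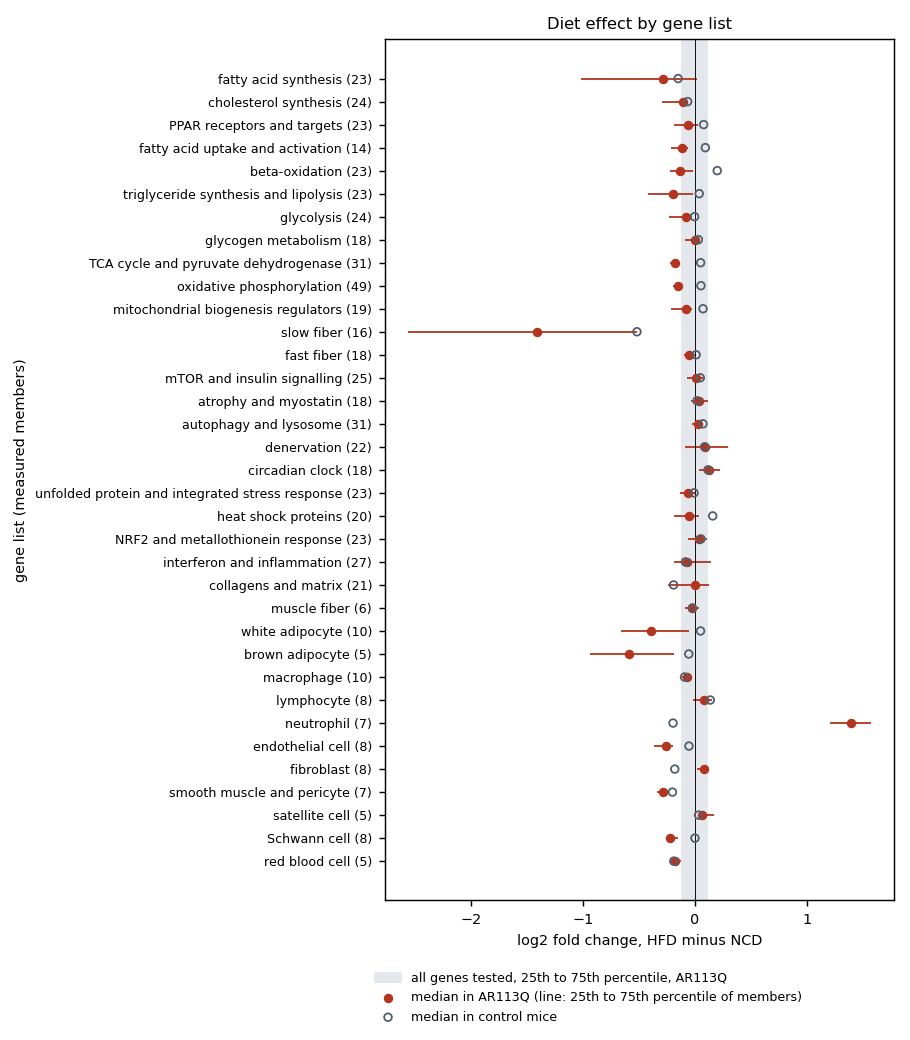
Median log2 fold change between HFD and NCD over each gene list in AR113Q mice (filled points, with lines from the 25th to the 75th percentile of the members) and in control mice (open points), beside that range over all genes tested in AR113Q mice (grey band). Slow fiber (−1.41) and neutrophil (1.39) lie farthest from 0 in AR113Q mice.

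Markers of neutrophils and vessel cells also differed between samples. All 7 neutrophil markers had a positive log2 fold change, with a median of 1.39, 3 higher at an unadjusted p under 0.05 (3.23% of all genes) and 0 called. The median was 0.68 without AR113Q-HFD replicate 4, 1.88 without AR113Q-HFD replicate 2 and 0.56 after normexp correction. Their summed level, led by S100a9, was 0.597, 0.764, 0.663, 0.668 and 0.388 on AR113Q-NCD arrays and 0.697, 0.436, 3.74, 10.71 and 0.863 on AR113Q-HFD arrays. HFD replicates 3 and 4 are far above the rest, and the other HFD arrays lie at or near the NCD range. Ngp, a granule protein, had the largest difference, −6.64, −6.61, −7.76, −6.22 and −6.58 on the NCD and −6.05, −6.11, −3.52, −2.0 and −5.47 on the HFD. It was not well above background on any AR113Q-NCD array, so it was at least 3.96-fold higher on the HFD when each NCD array takes the higher of its own signal and the lowest signal that was well above background there, and it was not called (limma adjusted p = 0.562). That bound holds for these arrays and this processing only, since the log2 fold change of 2.13 was 1.48 without AR113Q-HFD replicate 4 and 0.56 after normexp correction, and HFD replicates 1, 2 and 5 lie near the NCD arrays. Within slides the median of the neutrophil markers was 0.18, −0.18, 2.50, 4.06 and 1.01. Replicate 3 is 1 of the arrays low in slow fiber genes, and the part of neutrophils in that difference was not tested.

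Of 8 endothelial markers, 7 had a negative log2 fold change and 5 were lower at an unadjusted p under 0.05, with a median of −0.26 and 0 called, beside 3.41% lower at that p and 12385 of 24741 negative over all genes. Pecam1, an adhesion protein of vessel walls, had −0.26, −0.19, −0.14, −0.53 and −0.39 on AR113Q-NCD arrays and −0.58, −0.79, −0.64, −0.60 and −0.84 on AR113Q-HFD arrays, which do not overlap. The summed endothelial level, led by Flt1, was 24.5, 24.6, 26.4, 24.1 and 23.1 on the NCD and 22.5, 20.4, 19.9, 23.9 and 22.2 on the HFD. HFD replicates 2 and 3 are the lowest, as in the slow fiber genes, and the part of vessel density in the mitochondrial and slow fiber values was not tested. Smooth muscle and pericyte markers were negative in 7 of 7, with a median of −0.29 and 2 lower at that p. Their summed level, led by Tagln, was 35.6, 38.1, 50.3, 34.7 and 34.6 on AR113Q-NCD and 32.3, 29.8, 27.6, 31.3 and 34.4 on AR113Q-HFD arrays. All HFD arrays are below all NCD arrays in that sum, by a small gap, and NCD replicate 3 is far above its group. Within slides the endothelial median was −0.18, −0.38, −0.50, −0.076 and −0.084, each below 0.

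Further marker lists had 0 genes called and 0 at an unadjusted p under 0.05 in limma. Their medians were −0.075 for macrophage (10 of 10 measured), 0.081 for lymphocyte (8 of 9, Ms4a1 not measured), 0.084 for fibroblast (8 of 8), 0.062 for satellite cell (5 of 6, Myf5 not measured), −0.23 for Schwann cell (8 of 8) and −0.031 for muscle fiber (6 of 6) markers. The macrophage level, led by Csf1r, was 21.7, 21.1, 22.5, 22.2 and 17.8 on AR113Q-NCD arrays and 21.5, 16.9, 21.9, 20 and 20.7 on AR113Q-HFD arrays. These overlap, and so do the levels of the Schwann cell markers, led by Pmp22, with 7.23, 7.41, 8.17, 7.64 and 7.12 on the NCD and 6.8, 5.86, 6.41, 6.99 and 7.91 on the HFD. The satellite cell markers, led by Cdh15, had 5.37, 4.69, 4.7, 4.92 and 5.39 on AR113Q-NCD arrays and 5.63, 5.68, 5.58, 5.57 and 5.63 on AR113Q-HFD arrays. Every HFD array is above every NCD array in that sum, with a ratio of medians of 1.14, but most of the sum is Cdh15. Pax7 had −0.12, and the median of the list within slides was 0.077, −0.053, −0.058, −0.11 and 0.067, below 0 on 3 of 5. The sign of the macrophage, lymphocyte, fibroblast, satellite cell and muscle fiber medians changed with a setting or an array.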

How the data were processed

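RNA of 19 quadriceps samples, 1 per one-colour Agilent array, was compared by group, and the groups follow the sample labels. The deposited scanner files hold spot intensity values that the authors made with Agilent Feature Extraction 10.7.3.1, whose local background and spatial trends were, per the file headers, already taken off, while arrays were not normalized to each other. The authors also deposited a table of log2 values with 25944 entries, all with a probe name of the arrays. Its columns have medians from 7.59 to 7.65 and correlate with the same arrays' log2 signals at 0.979 to 0.982, and the normalization behind it is not stated.

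Control spots and outlier spots were left out, the log2 signals of 43020 spots were averaged to 39429 probes, and every array's own 75th percentile was taken off. A probe entered the tests if 4 or more of the 19 arrays had 0.5 or more of its spots well above background (32026 probes of 24741 genes). Symbols follow the files. The accessions of 23310 tested probes matched RefSeq. The fit of group means to all 19 arrays used limma 3.58.1 under R 4.3.3 (lmFit, eBayes, Benjamini-Hochberg over all probes), which was checked on simulated data. The data.table package (1.17.8) read the files, and Python 3.11.15 with matplotlib 3.10.9 made the figures. A gene was called as the report states, and the interaction at an adjusted p under 0.05. In lists a gene is represented by its brightest probe, except that any called probe counts as a call.

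Named genes are those with an adjusted p under 0.05, up to 8 of the largest differences a direction without overlap at an unadjusted p under 0.01, genes the study measured by real-time PCR in muscle, the fatty acid synthesis list, and up to 4 genes of smallest p in each other list. Idh2, Pdk3 and Ndufa8, and the genes named for 1 left-out array, were chosen after their values were seen. The members and lists were chosen with earlier results of these data known. Alternatives were quantile normalization, median subtraction, normexp correction (offset 50), the authors' values, other filters and variance estimates, array weights, no fold threshold, slide and replicate blocks, the 10 AR113Q arrays alone, and each AR113Q array left out.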

Additional observations from a re-analysis of the deposited data

Results flagged for a closer look

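Each sample was compared with the others of its group by the gap to its nearest neighbour as a share of the group's range. Of 260 groups of values, 14 (5.38%) held a sample that stood apart, and chance alone marks about 1 in 20 groups, so the number is close to what chance gives. The values below are log2 signals relative to the array's 75th percentile unless stated.

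In AR113Q-NCD, replicate 2 was above its group for Scd3 (−1.87, the others −2.74 to −2.51), Cidea (3.92, the others 0.30 to 0.96), Plin2 (2.60, the others 1.49 to 1.80) and Agpat2 (3.97, the others 2.80 to 3.13). Replicate 3 was above its group for Tnnc1 (3.45, the others 2.05 to 2.37) and for the summed level of the smooth muscle and pericyte markers (50.3 times the 75th percentile, the others 34.6 to 38.1), and below it for Ngp (−7.76, the others −6.64 to −6.22). Replicate 4 was above its group for Fam171b (−2.35, the others −2.95 to −2.82) and below it for Chrnb1 (−0.46, the others 0.29 to 0.36). Replicate 1 was below its group for Scd1 (3.61, the others 4.46 to 4.66).

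In AR113Q-HFD, replicate 4 was below its group for Chrnb1 (0.22, the others 0.65 to 0.81), Nr1h3 (2.17, the others 2.39 to 2.46) and Sqstm1 (4.19, the others 4.38 to 4.45), and replicate 2 was below it for Akt1 (2.67, the others 3.19 to 3.28).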

How the results depend on the processing

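Of 2295 values for 110 probes of 108 genes under the alternatives, 2277 kept their direction and 18, of 7 probes, took the other. Under the 21 alternatives Fasn ranged from −3.20 to −2.43 and lost its call under 2, and Elovl6 ranged from −3.11 to −2.32 and lost it under 4. The brightest Acaca probe lost its call under 11, Acly under 11 and Fam171b under 12. With an array left out, that happened in 5, 6 and 8 of the 10 fits. The number of genes called higher, 1 in the report, was 2 with quantile normalization, with only probes well above background on all 10 AR113Q arrays, and with a trended robust variance (Fam171b and Cpne2). It was 0 with normexp correction, on the 10 AR113Q arrays alone, and with the slide or the replicate number as a block, and 0 to 6 with an array left out. The number called lower, 6 in the report, was 2 with normexp correction (Acaca and Fasn), 1 on the 10 AR113Q arrays alone, where fewer samples estimate the spread, 2 with either block (Elovl6 and Fasn), and 0 to 6 with an array left out. In limma, the control mice and the interaction had 0 called genes under every alternative run, against 2624 and 1404 genes with any probe at an unadjusted p under 0.05.

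Pairing by replicate number was checked by the correlation of arrays of equal number after their group means were removed. It was 0.476, 0.347, −0.007, 0.161 and 0.425, so not every pair was alike. Among the AR113Q arrays the replicate numbers are also the slides, so this paired fit and the slide block of the report group these arrays alike. Of the control arrays, CTR-HFD replicate 4 lies on slide 5, so the blocks differ for it.

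Most directions that turned belong to small values, but Scd4 (0.22) and Gm129 (0.94), both with low signals, turned under normexp correction. Acacb was −0.033 with the authors' values, Scd4 was −0.016 with normexp correction, and Gm129 was −0.071 with it. Mlx was 0.015 with quantile normalization, 0.025 with the median subtracted, 0.012 with normexp correction and 0.026 with the authors' values. With an array left out the lowest and highest values were −0.043 and 0.066 for Acacb, −0.031 and 0.024 for Mlx, −0.015 and 0.16 for Mid1ip1, −0.0043 and 0.069 for Nr1h3, and −0.0073 and 0.11 for Tfeb. Of the 35 lists, 11 had a median of the other sign under at least 1 alternative. The cause of these shifts was not tested. NAP092820-001, Ucp1, Gm129, 4933404I11Rik and Ngp were not well above background on every AR113Q array, which limits the size of their differences. The called Scd3 probe and the probes given for Krtdap, Gm7534 and Cldn2 were well above background on all 10 AR113Q arrays. Their differences were smaller after normexp correction.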
